A study of Mus musculus with 12 samples.

Results

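The second J cluster of the mouse T cell receptor beta locus was described in T cells from tumours of mice given 1 of 2 injected preparations. Its members are the 6 functional joining segments TRBJ2-1, TRBJ2-2, TRBJ2-3, TRBJ2-4, TRBJ2-5 and TRBJ2-7, found by the J segment named on each beta chain. They were named on 17228 of 24619 beta (TRB) chains, 70.0%, and the remaining 7391 chains carried a segment of the first cluster, TRBJ1. TRBJ2-6, a pseudogene, was named on 0 chains. The members held 3644, 1378, 3003, 2043, 2659 and 4501 chains in that order.

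A beta chain is made in the thymus by joining 1 of several V segments, a D segment and a J segment, and the bases added or lost at the joins make the CDR3, the loop that contacts peptide and MHC. The locus holds repeated D-J-C units in a row: TRBD1 with the TRBJ1 segments and the constant gene TRBC1, then TRBD2 with the TRBJ2 segments and TRBC2. The J segment supplies the end of the CDR3 and the framework behind it. TRBD1 lies before both J clusters and can join to either, whereas TRBD2 lies behind TRBJ1. T cells that descend from 1 cell share the same rearranged chains, so a receptor seen in many cells of a tumour marks a clone.

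The cells came from C57BL/6J mice of 6 to 8 weeks that carried subcutaneous tumours from 300000 cells of a p53-deleted derivative of MC38, a mouse colon carcinoma line, for which the labels give conflicting notations of a p53 substitution. On day 10, at about 50 to 100 mm3, each tumour received 1 intratumoral dose of 40 µg of LNP-Ctrl, the control preparation, or LNP-P20-mAb. Viable CD45+ leukocytes were sorted, about 10000 cells per sample were loaded, and 5′ expression and TCR libraries were made, 3 of each per treatment and 12 in all. The expression libraries were not analysed here, and no source used here states when tumours were harvested. The labels do not tie the libraries to separate animals, so each p-value reflects only how far these libraries differ from each other, which may be a technical spread.

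The 6 TCR libraries held 2016 to 3923 usable cells, meaning barcodes with 1 TRB chain and 1 or 2 alpha (TRA) chains, and 19115 in all. Cells of 1 library with the same TRB chain and a shared TRA chain were counted as 1 clonotype, which gave 10624 clonotypes, of which 7208 were J2, held by 13453 cells. Clonotypes numbered 1800, 3092 and 3416 in LNP-Ctrl 1 to 3 and 562, 400 and 1354 in LNP-P20-mAb 1 to 3. LNP-P20-mAb 1 and 2 shared 85 J2 TRB chains, of 413 and 274, which held 84.1% and 85.4% of their J2 cells. Every other pair of libraries shared 0 to 5. They shared 7 cell barcodes, 1 of them with the same TRB chain, while other pairs shared 6 to 22 barcodes and none with the same chain. The main comparisons are therefore also given with these 2 libraries pooled, whereas per-library means, partner ranks and counts over all clonotypes treat them as separate. The J names were checked against the constant genes: each of 17192 J2 chains with a constant gene named carried TRBC2, and each of 7331 such J1 chains carried TRBC1. The median J2 cell had 14 to 22 TRB transcripts (UMIs) by library, against 13 to 27.5 for J1.

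The largest clone of each segment shows how the 6 J segments end the CDR3, and these receptors hold large parts of several of the cell counts that follow. The bases are coding-strand, 5′ to 3′, from the codon of the first conserved cysteine to that of the last phenylalanine. Capitals mark the end conserved in each segment, the run of bases from the 3′ end of which each was found in at least 90% of that segment's distinct CDR3 sequences. TRBJ2-4 is shown with its 2 clones of equal size.
TRBJ2-1 with TRBV20: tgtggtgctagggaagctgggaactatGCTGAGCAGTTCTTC
TRBJ2-2 with TRBV26: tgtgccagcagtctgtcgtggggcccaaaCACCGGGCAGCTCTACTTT
TRBJ2-3 with TRBV3: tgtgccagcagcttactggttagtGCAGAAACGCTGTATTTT
TRBJ2-4 with TRBV10: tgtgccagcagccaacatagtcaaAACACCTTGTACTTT
TRBJ2-4 with TRBV13-3: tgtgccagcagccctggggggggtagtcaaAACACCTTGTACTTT
TRBJ2-5 with TRBV1: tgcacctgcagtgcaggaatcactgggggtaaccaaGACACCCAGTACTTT
TRBJ2-7 with TRBV13-1: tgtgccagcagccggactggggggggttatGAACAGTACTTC
The conserved ends were 12 bases long in TRBJ2-7, 15 in TRBJ2-1, TRBJ2-4 and TRBJ2-5, 18 in TRBJ2-3 and 19 in TRBJ2-2. The whole end was present in 98.4% of TRBJ2-7 and 97.6% of TRBJ2-1 sequences and in 87.0% of TRBJ2-2 sequences, the lowest. In the list of clones above, the TRBJ2-7 clone was the only 1 of the 7 on which a D segment, TRBD2, was named.

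By distinct clonotypes, TRBJ2-7 was the most used member and TRBJ2-2 the least, in every library. TRBJ2-7 made up 20.1, 21.3 and 17.9% of clonotypes in LNP-Ctrl 1 to 3 and 23.0, 20.8 and 20.5% in LNP-P20-mAb 1 to 3. TRBJ2-1 made up 13.1, 11.5 and 11.1% against 16.9, 13.0 and 14.4%. TRBJ2-5 made up 11.9, 12.4 and 12.7% against 11.4, 10.5 and 12.7%. These 3 were the common members, and each of the other 3 stayed at or below 10.0%. TRBJ2-3 made up 9.22, 8.18 and 9.98% against 8.90, 9.50 and 7.90%. TRBJ2-4 made up 8.5, 8.93 and 8.93% against 8.54, 10.0 and 8.79%. TRBJ2-2 made up 6.11, 5.40 and 5.12% against 5.16, 5.25 and 5.17%.

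Averaged over the 6 libraries, the order was TRBJ2-7 at 20.6% ± 1.65 (SD, n = 6), TRBJ2-1 at 13.3% ± 2.12, TRBJ2-5 at 11.9% ± 0.857, TRBJ2-3 at 8.95% ± 0.791, TRBJ2-4 at 8.95% ± 0.548 and TRBJ2-2 at 5.37% ± 0.377. TRBJ2-7 exceeded TRBJ2-1, TRBJ2-5 exceeded TRBJ2-3 and TRBJ2-4 exceeded TRBJ2-2 in 6 of 6 libraries. Each of these steps reached p = 0.031, the smallest that the two-sided exact sign-flip permutation test over 64 flips allows, and 0.156 when adjusted over 25 steps between neighbours. The neighbours TRBJ2-1 and TRBJ2-5 (exact permutation p = 0.219) and TRBJ2-3 and TRBJ2-4 (exact permutation p = 1) did not differ beyond their spread. The order was not that of the segments along the locus, in which TRBJ2-1 comes first and TRBJ2-7 last.

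Counting cells moved the order. TRBJ2-7 was at 19% ± 2.68 of cells (SD, n = 6), TRBJ2-1 at 15.2% ± 5.27, TRBJ2-3 at 11.8% ± 5.04, TRBJ2-5 at 10.2% ± 1.49, TRBJ2-4 at 8.49% ± 2.32 and TRBJ2-2 at 5.84% ± 1.28. No step between neighbours was below an exact permutation p of 0.125. The wide spreads of TRBJ2-1 and TRBJ2-3 came with 1 library each. TRBJ2-1 held 25.3, 10.5 and 11.7% of cells in the LNP-Ctrl libraries and 14.8, 15.5 and 13.4% in the LNP-P20-mAb libraries. In LNP-Ctrl 1, 468 of its 842 cells (55.6%) were the single TRBV20 clone shown above. TRBJ2-3 held 10.7, 7.65 and 9.45% against 9.32, 12.3 and 21.6%. In LNP-P20-mAb 3, 414 of its 615 cells (67.3%) were the single TRBV3 clone shown above.

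**Figure D1:**
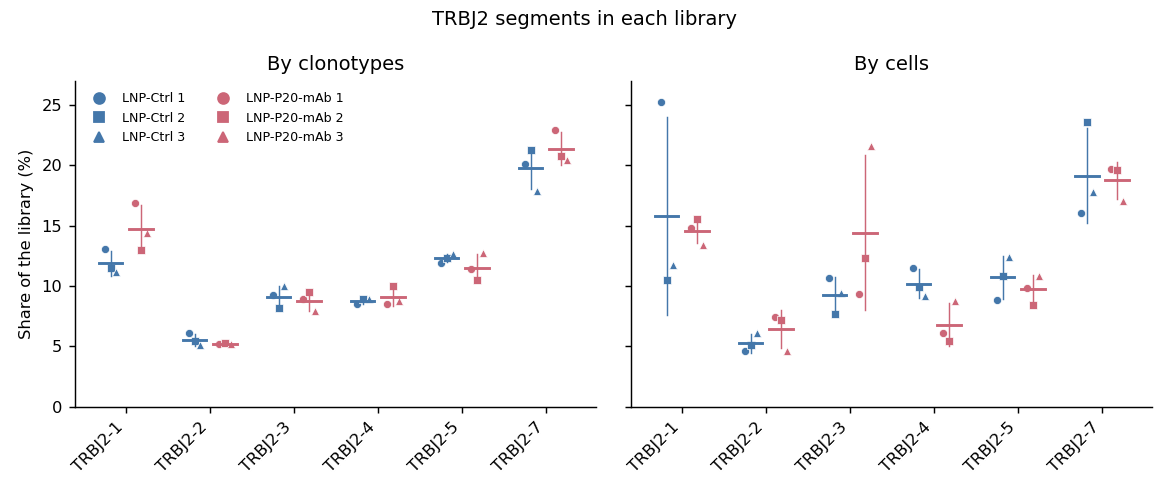
Share of each library's clonotypes (left) and cells (right) in % that used each TRBJ2 segment. Points are libraries, horizontal lines group means and vertical lines 1 SD (n = 3 per treatment). TRBJ2-7 leads by clonotypes in every library, and by cells the TRBJ2-1 point of LNP-Ctrl 1 (25.3%) and the TRBJ2-3 point of LNP-P20-mAb 3 (21.6%) stand above their groups.

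The first comparison between treatments asked whether the repertoires drew on the segments differently. The cluster as a whole made up 68.9, 67.6 and 65.7% of clonotypes in LNP-Ctrl 1 to 3 and 73.8, 69.0 and 69.4% in LNP-P20-mAb 1 to 3. Every LNP-P20-mAb library was above every LNP-Ctrl library, though LNP-Ctrl 1 and LNP-P20-mAb 2 were close. The means were 67.4% ± 1.62 and 70.8% ± 2.68 (SD, n = 3 each), a difference of 3.33 percentage points with a two-sided exact permutation p of 0.1, the smallest that 3 against 3 allows, and 0.322 adjusted over 29 such comparisons. With the clone-sharing libraries pooled, the LNP-P20-mAb values were 72.1 and 69.4% (exact permutation p = 0.2). By cells the cluster held 76.9, 67.6 and 66.7% against 67.3, 68.5 and 76.4%, with overlapping groups and a difference of 0.299 points (exact permutation p = 0.8).

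No single member passed the test for a change in clonotype usage. edgeR's quasi-likelihood test with Benjamini-Hochberg adjustment called 5 of 151 V and J segments of both chains (3.31%) and 0 of the 6 members, of which 1 was below an unadjusted p of 0.05. DESeq2 called 0 of the 6 as well, with 0 below an unadjusted p of 0.05. TRBJ2-1 was the nearest, with a log2 difference of LNP-P20-mAb from LNP-Ctrl of 0.32 ± 0.12 (SE, edgeR adjusted p = 0.135). Without LNP-Ctrl 1 it passed, at 0.39 (edgeR adjusted p = 0.0340), in a fit that called 8 of 148 segments higher and 8 lower. The log2 differences of the other members were -0.09 ± 0.16 for TRBJ2-2, -0.09 ± 0.14 for TRBJ2-3, 0.03 ± 0.13 for TRBJ2-4, -0.07 ± 0.12 for TRBJ2-5 and 0.11 ± 0.11 for TRBJ2-7. The median over the 6 members was -0.02, beside -0.04 over all segments tested. Among the 6 TRBJ1 segments, also 0 were called, with log2 differences from -0.42 for TRBJ1-5 to 0.19 for TRBJ1-6. The 5 segments called were V segments, led by TRBV3, which fell by 1.89 ± 0.25 on the log2 scale (edgeR adjusted p = 3.26e-05), and TRBV12-2, which rose by 1.08 ± 0.16 (edgeR adjusted p = 5.28e-05).

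TRBJ2-4 was the member whose share of cells separated the treatments. It held 11.5, 9.92 and 9.18% of cells in LNP-Ctrl 1 to 3 and 6.13, 5.41 and 8.79% in LNP-P20-mAb 1 to 3. All LNP-P20-mAb values lay below all LNP-Ctrl values, with means of 6.78% ± 1.78 and 10.2% ± 1.20 (SD, n = 3 each). The exact permutation p was 0.1, the smallest the design allows, and 0.322 adjusted over the 29 comparisons. With LNP-P20-mAb 1 and 2 pooled, the values were 5.85 and 8.79%. Its share of clonotypes overlapped between the treatments, as given above. Separation was not particular to TRBJ2-4, since 9 of the 29 comparisons did not overlap. Among the TRBJ1 segments, TRBJ1-4 also separated in its share of cells, at 5.85, 5.30 and 6.80% against 2.27, 3.32 and 4.96%.

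Pairs of a V and a J segment showed where the V segment changes met the J2 members. Of 140 V-J pairs tested on clonotypes with edgeR, 12 (8.57%) were called at an adjusted p of 0.05, 5 (3.57%) higher and 7 (5.00%) lower with LNP-P20-mAb. J2 pairs were 91 of the 140 and gave 5 of the higher and 3 of the lower calls, and their median log2 difference was 0.11, beside 0.02 over all pairs. In all, 8 of the 91 J2 pairs were called, beside 12 of all 140. The 3 that fell all held TRBV3, and the 5 that rose held TRBV12-1, TRBV12-2 or TRBV13-1. The fall of TRBV3 was not particular to J2. TRBV3 with TRBJ1-1 had the lowest adjusted p of all pairs (log2 change -3.03, edgeR adjusted p = 1.93e-05). TRBV3 with TRBJ1-2 and TRBJ1-4 was called at -6.18 and -6.39, with 0 clonotypes in each LNP-P20-mAb library. TRBV3 with TRBJ2-4 was found in 18, 28 and 33 clonotypes of LNP-Ctrl 1 to 3 and in 2, 1 and 0 of LNP-P20-mAb 1 to 3. That is 1.00, 0.906 and 0.966% of clonotypes against 0.356, 0.25 and 0%, with no overlap between the groups. The log2 change was -2.81 ± 0.57 (SE, edgeR adjusted p = 0.000167). The LNP-P20-mAb libraries held 3 such clonotypes of 2316, all in the clone-sharing libraries, against 79 of 8308. With those libraries pooled, so that shared clones count once, it was 2 of 2196, a ratio of 0.0958 with a wide 95% interval from counting error only, 0.0114 to 0.358. The pooled log2 change was -3.30 (edgeR adjusted p = 5.04e-05).

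TRBV3 with TRBJ2-7 was found in 27, 68 and 60 clonotypes of the LNP-Ctrl libraries against 5, 1 and 3 of the LNP-P20-mAb libraries. It fell by 2.21 ± 0.51 on the log2 scale (edgeR adjusted p = 0.000792). TRBV3 with TRBJ2-5 was found in 18, 39 and 29 clonotypes against 3, 1 and 3. It fell by 1.75 ± 0.45 (edgeR adjusted p = 0.00409). TRBV3 with TRBJ2-1 and with TRBJ2-3 missed the threshold, at -1.49 and -1.17 on the log2 scale (edgeR adjusted p = 0.0509 for each). TRBV3 with TRBJ2-3 passed when LNP-P20-mAb 1 and 2 were pooled, at -1.62 (edgeR adjusted p = 0.0108), and TRBV3 with TRBJ2-1 did not, at -1.42 (edgeR adjusted p = 0.0686).

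Of the pairs that rose, TRBV12-2 with TRBJ2-5 made up 0.5, 0.614 and 0.673% of clonotypes in LNP-Ctrl 1 to 3 and 1.78, 0.750 and 1.62% in LNP-P20-mAb 1 to 3. Its log2 change was 1.29 ± 0.32 (edgeR adjusted p = 0.00233). TRBV12-2 with TRBJ2-1 made up 0.333, 0.453 and 0.439% against 0.890, 0.750 and 1.18%, a log2 change of 1.27 ± 0.43 (edgeR adjusted p = 0.0363). The groups did not overlap in either pair. TRBV13-1 with TRBJ2-7 made up 0.611, 1.42 and 0.937% against 2.14, 4.00 and 1.99%, a log2 change of 1.24 ± 0.36 (edgeR adjusted p = 0.00841). TRBV13-1 with TRBJ2-1 made up 0.556, 0.614 and 0.761% against 1.78, 1.25 and 1.40%, a log2 change of 1.15 ± 0.32 (edgeR adjusted p = 0.00723). The groups did not overlap in these either. TRBV12-1 with TRBJ2-1 overlapped, at 1.33, 0.841 and 0.439% against 1.42, 0.750 and 2.07%, with a log2 change of 1.04 ± 0.33 (edgeR adjusted p = 0.0198). These last 2 pairs lie outside the naming rule and were chosen after their values were seen. TRBV12-1, TRBV12-2 and the entry TRBV12-2+TRBV13-2, a joined name in the files, could take chains from each other, so their separate counts are uncertain.

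**Figure D2:**
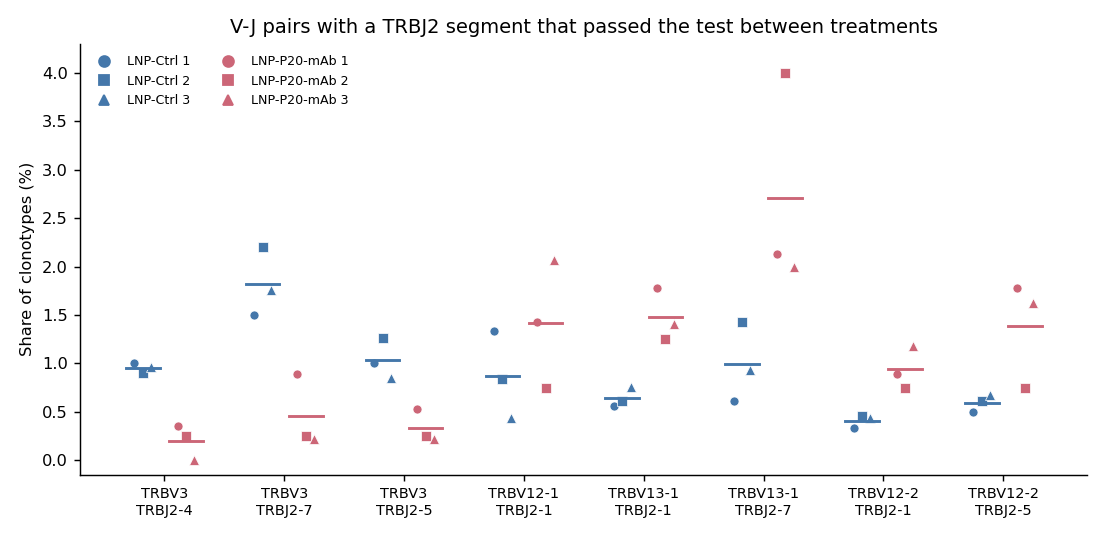
Share of clonotypes in % for the 8 pairs of a V and a TRBJ2 segment that passed edgeR's test between treatments. Points are libraries and lines group means (n = 3). The 3 TRBV3 pairs are lower in every LNP-P20-mAb library, and among the other 5 the groups overlap for TRBV12-1 with TRBJ2-1.

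These calls depended on the libraries, the tool and the unit counted. Of the 8 J2 pairs, 7 were called when LNP-Ctrl 1 was left out and 4 each when LNP-Ctrl 2 or LNP-Ctrl 3 was. Leaving out LNP-P20-mAb 1 kept 5 calls and leaving out LNP-P20-mAb 2 kept 6. Without LNP-P20-mAb 3 edgeR called 0 of 125 pairs, with 25 below an unadjusted p of 0.05. With a library left out, the 3 TRBV3 pairs and TRBV12-2 with TRBJ2-5 were each called in 4 or 5 of 6 fits, and the other 4 pairs in 1 to 3. DESeq2 called 1 of the 8, TRBV3 with TRBJ2-7 (DESeq2 adjusted p = 0.0323). All 8 were called with LNP-P20-mAb 1 and 2 pooled. With cells counted, the 3 TRBV3 pairs were called and none of the 5 pairs that rose was. By cells, TRBV12-2 with TRBJ2-5, TRBV12-2 with TRBJ2-1 and TRBV13-1 with TRBJ2-1 turned to log2 differences of -0.048, -0.20 and -0.21. TRBV12-1 with TRBJ2-1 was at 0.055 (edgeR adjusted p = 0.965), and TRBV13-1 with TRBJ2-7 at 3.15 (edgeR adjusted p = 0.0514).

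Counted by cells, TRBV3 with TRBJ2-3 went the other way from the other TRBV3 pairs. It held 23, 31 and 46 cells in LNP-Ctrl 1 to 3 and 205, 161 and 415 in LNP-P20-mAb 1 to 3, which is 0.690, 0.790 and 1.23% of cells against 6.28, 7.99 and 14.6%. The groups were far apart, and the log2 change was 3.41 ± 0.99 (edgeR adjusted p = 0.0373). With cells counted, 19 of 140 pairs were called (13.6%), among them 2 higher and 8 lower J2 pairs. The fits with cells counted took LNP-P20-mAb 1 and 2 as separate libraries although they share clones, and no pooled fit of cells was made. Their p-values therefore count shared clones more than once. Nearly all of the TRBV3 with TRBJ2-3 cells of the LNP-P20-mAb libraries were of 2 clones. One made up 414 of the 415 cells of LNP-P20-mAb 3. The other made up 201 of 205 in LNP-P20-mAb 1 and 154 of 161 in LNP-P20-mAb 2. They are shown together because they use the same V and J segments and TRAV7D-2 on the alpha chain, with capitals again marking the conserved end of TRBJ2-3.
TRBV3 with TRBJ2-3 in LNP-P20-mAb 3: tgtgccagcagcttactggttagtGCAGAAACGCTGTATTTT
TRBV3 with TRBJ2-3 in LNP-P20-mAb 1 and 2: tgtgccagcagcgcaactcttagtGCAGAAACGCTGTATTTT
Both CDR3s are 42 bases long, and 36 bases are identical. The 6 that differ lie between positions 13 and 19, counted from 1 at the 5′ end. Their alpha chains differ in the J segment, TRAJ17 in the first and TRAJ4 in the second. The other J2 pair that was higher by cells was TRBV1 with TRBJ2-1, at 0.510, 0.433 and 0.562% of cells against 2.30, 4.37 and 3.24% (log2 change 2.71, edgeR adjusted p = 0.0407).

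The V partners of the members were next set against those of TRBJ1 within the same libraries. Of 22 TRBV segments, edgeR called 2 (9.09%), with 6 below an unadjusted p of 0.05. TRBV10 was more frequent among J2 clonotypes. It made up 4.35, 4.97 and 5.03% of J2 clonotypes in LNP-Ctrl 1 to 3 and 6.02, 7.25 and 5.43% in LNP-P20-mAb 1 to 3, while among J1 clonotypes it made up 2.33, 3.00 and 3.16% and 5.44, 3.23 and 5.07%. It was higher in J2 in 6 of 6 libraries, with a log2 difference of 0.61 ± 0.16 (SE, edgeR adjusted p = 0.00704). TRBV29 was less frequent, at 5.08, 4.21 and 3.25% and 4.58, 3.26 and 4.57% of J2 clonotypes against 7.87, 5.69 and 3.42% and 10.2, 7.26 and 7.49% of J1 clonotypes. It was lower in J2 in 6 of 6 libraries, with a log2 difference of -0.51 ± 0.15 (edgeR adjusted p = 0.00830). The TRBV10 call was lost without LNP-Ctrl 2 (edgeR adjusted p = 0.0662) or LNP-Ctrl 3 (0.0606), and the TRBV29 call without LNP-Ctrl 1 (edgeR adjusted p = 0.0668), LNP-Ctrl 2 (0.0662) or LNP-P20-mAb 3 (0.125). Both segments were called with LNP-P20-mAb 1 and 2 pooled (edgeR adjusted p = 0.0117 for each). Counting cells gave 0 calls, with 3 of the 22 below an unadjusted p of 0.05. Neither segment's J2 difference was called as depending on the treatment: edgeR's interaction test called 0 of 22, with 0 below an unadjusted p of 0.05.

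The TRBV10 partners were uneven within the cluster. TRBV10 made up 10.8% ± 3.99 of TRBJ2-3 clonotypes (SD, n = 6 libraries) and 2.26% of TRBJ2-2 clonotypes, with the other 4 members at 4.59 to 6.18%. For TRBJ2-3 the LNP-Ctrl mean was 7.39% and the LNP-P20-mAb mean 14.2% (log2 change of the pair 0.82 ± 0.33, edgeR adjusted p = 0.110), and for TRBJ2-2 they were 3.56% and 0.952%. In all, 85 of 367 TRBV10 clonotypes of the cluster used TRBJ2-3. By the mean over all 6 libraries, the entry TRBV12-2+TRBV13-2 was the leading partner of TRBJ2-1 (9.05%), TRBJ2-5 (10.8%) and TRBJ2-7 (10.5%) and was behind the leading partner for TRBJ2-2 (9.69%), TRBJ2-4 (8.41%) and TRBJ2-3 (9.10%). TRBV12-2 led for TRBJ2-2 (9.83%), TRBV10 for TRBJ2-3 and TRBV13-3 for TRBJ2-4 (8.98%). These ranks mix treatments that differed. In LNP-Ctrl the leading partner was TRBV5 for TRBJ2-2 (9.27%, TRBV12-2 5.54%), TRBV12-2+TRBV13-2 for TRBJ2-3 (11.1%) and TRBV3 for TRBJ2-4 (10.9%, TRBV13-3 6.96%). In LNP-P20-mAb it was TRBV12-2 for TRBJ2-2 (14.1%), TRBV10 for TRBJ2-3 and TRBV5 for TRBJ2-4 (11.3%, TRBV13-3 11.0%). For TRBJ2-1, TRBJ2-5 and TRBJ2-7 the LNP-Ctrl leader was the joined entry. The LNP-P20-mAb leader was TRBV13-1 for TRBJ2-1 (9.96%) and TRBJ2-7 (12.8%) and TRBV12-2 for TRBJ2-5 (11.9%). Over all 6 libraries, TRBV5 was among the 3 leading partners of TRBJ2-2, TRBJ2-3, TRBJ2-4, TRBJ2-5 and TRBJ2-7, at 7.97 to 9.19%. The remaining places were held by TRBV12-1 (8.34%) and TRBV13-1 (7.72%) for TRBJ2-1, TRBV12-2 (8.34%) for TRBJ2-5 and TRBV13-1 (8.88%) for TRBJ2-7.

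Likeness of V partners was measured as the total variation distance between 2 segments' TRBV profiles, which is 0 for equal profiles and 1 for disjoint ones, averaged over the 6 libraries. TRBJ2-7 was the nearest segment to each of the other 5 members, at 0.188 ± 0.0687 (SD, n = 6) for TRBJ2-1, 0.261 ± 0.0980 for TRBJ2-2, 0.236 ± 0.128 for TRBJ2-3, 0.202 ± 0.0789 for TRBJ2-4 and 0.187 ± 0.0867 for TRBJ2-5, which was in turn the nearest to TRBJ2-7. The second nearest was TRBJ2-4 for TRBJ2-1 (0.211), TRBJ2-5 for TRBJ2-2 (0.266) and TRBJ2-3 (0.238), and TRBJ2-1 for TRBJ2-4 (0.211), TRBJ2-5 (0.221) and TRBJ2-7 (0.188). The distance depends on the number of clonotypes behind each profile, and TRBJ2-7 has the most, 2120. The part of that number in the order was not tested.

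The CDR3 averaged longer with J2 than with J1 in every library. Its mean length was 14.07 residues ± 0.055 over J2 clonotypes and 13.85 over J1 clonotypes (SD, n = 6), and J2 was longer in 6 of 6 libraries by 0.219 ± 0.0552. The exact sign-flip permutation p was 0.031, the smallest allowed, and 0.0781 adjusted over 5 comparisons of the clusters. J2 was longer by a mean of 0.218 in 5 of 5 samples when LNP-P20-mAb 1 and 2 were pooled (exact permutation p = 0.0625, the smallest that 5 samples allow). Within the cluster, the mean was 14.8 residues for TRBJ2-2, 14.7 for TRBJ2-3, 14.3 for TRBJ2-1, 14.3 for TRBJ2-4, 14.1 for TRBJ2-5 and 13.3 for TRBJ2-7. The steps from TRBJ2-3 to TRBJ2-1, by 0.335 ± 0.118, and from TRBJ2-5 to TRBJ2-7, by 0.842 ± 0.154, were present in 6 of 6 libraries (exact permutation p = 0.031, adjusted 0.156 over 25). The other neighbours did not differ beyond their spread, with exact permutation p from 0.188 to 0.344.

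TRBJ2-2 and TRBJ2-3 also led in long CDR3s and TRBJ2-7 in short ones. CDR3s of 16 residues or more made up 28.1% of TRBJ2-2, 23.9% of TRBJ2-3, 20.1% of TRBJ2-4, 15.5% of TRBJ2-1 and 13.2% of TRBJ2-5 clonotypes, but 3.96% of TRBJ2-7 clonotypes. CDR3s of 12 residues or fewer made up 27.1% of TRBJ2-7 clonotypes and 5.24 to 10.7% of those of the other members. The segments themselves differ in how many of their bases lie before the framework: 22 in TRBJ2-1, 23 in TRBJ2-2, 21 in TRBJ2-3, TRBJ2-4 and TRBJ2-5, and 19 in TRBJ2-7, from gene lengths in RefSeq (assembly GRCm38.p6). When these were subtracted, the mean remainder was 23.0 bases ± 0.278 for TRBJ2-3 (SD, n = 6 libraries), above the 20.9 to 21.8 of the other members. TRBJ2-7, the shortest by CDR3 length, had a remainder of 20.9 ± 0.274, beside 21.0 ± 0.303 for TRBJ2-1.

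Between treatments, the mean J2 lengths of LNP-P20-mAb and LNP-Ctrl differed by 0.0599 residues (exact permutation p = 0.3), with overlapping libraries. With LNP-P20-mAb 1 and 2 pooled they did not overlap, at 14.063 and 14.162 residues against 14.058, 14.057 and 13.992. The pooled difference was 0.0764 (exact permutation p = 0.1, the smallest allowed). TRBJ2-5 was the member whose libraries separated, with means of 14.13, 14.01 and 14.04 residues in LNP-Ctrl 1 to 3 and 14.31, 14.17 and 14.20 in LNP-P20-mAb 1 to 3. The difference of 0.168 had an exact permutation p of 0.1, the smallest allowed, and 0.322 adjusted over the 29 comparisons. With LNP-P20-mAb 1 and 2 pooled, the LNP-P20-mAb values were 14.24 and 14.20 (exact permutation p = 0.2). Among the TRBJ1 segments, TRBJ1-3 and TRBJ1-6 also separated by library, with larger differences of -0.215 and 0.481 residues.

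**Figure D3:**
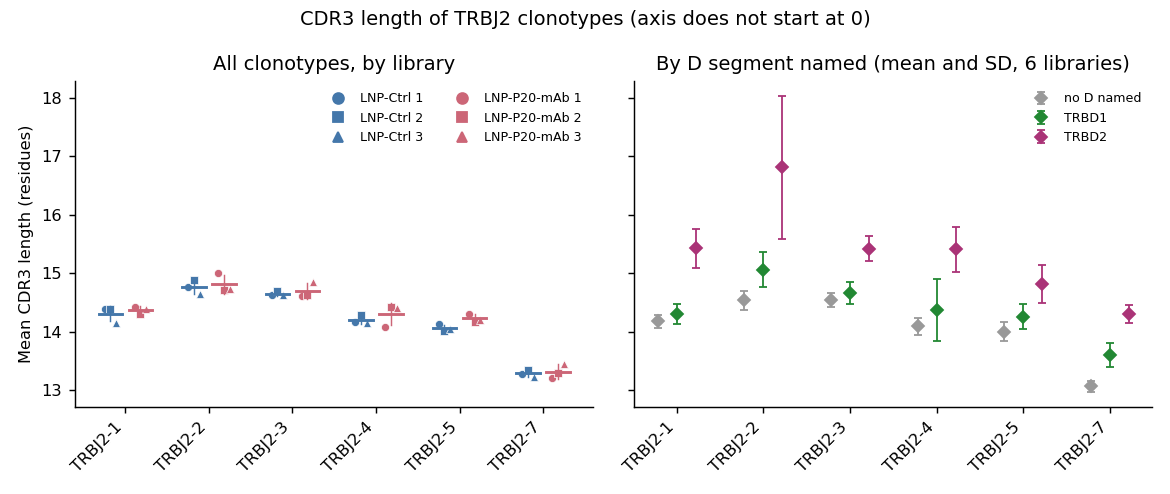
Mean CDR3 length in residues of each TRBJ2 segment's clonotypes, by library (left, with group means and SD, n = 3) and by the D segment named (right, mean and SD over 6 libraries). The axis does not start at 0. TRBJ2-7 is the shortest at 13.3 residues, and clonotypes named TRBD2 are the longest for every segment.

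Among J2 clonotypes with a D segment named, TRBD1 and TRBD2 were in nearly equal number, and among J2 cells TRBD2 was in the majority. A D segment was named on 24.8% of J2 clonotypes: TRBD1 on 866, TRBD2 on 918 and none on 5424. Among J2 clonotypes with a D named, 51.5% had TRBD2 (95% exact Clopper-Pearson interval, for counting error only, 49.1 to 53.8%). Among J2 cells with a D named it was 1655 of 2812, or 58.9% (57.0 to 60.7%). That interval counts cells of 1 clone as separate draws, and these cells include large clones named TRBD2. The TRBV13-1 clone with TRBJ2-7 held 253 of them in LNP-P20-mAb 1 and 137 in LNP-P20-mAb 2. A TRBV12-2 clone with TRBJ2-7 held 102 in LNP-Ctrl 1. Among J1 clonotypes with a D named, TRBD2 was on 6 of 723, or 0.830% (0.305 to 1.80%). By library the J2 share was 50.5, 50.8 and 49.4% in LNP-Ctrl 1 to 3 and 60.2, 46.9 and 57.0% in LNP-P20-mAb 1 to 3. J2 exceeded J1 in 6 of 6 libraries by 51.6 points ± 4.41 (SD), with an exact permutation p of 0.031, the smallest allowed, and 0.0781 adjusted over 5 comparisons. It was higher by a mean of 52.1 points in 5 of 5 samples after LNP-P20-mAb 1 and 2 were pooled (exact permutation p = 0.0625). TRBD2 lies behind TRBJ1 in the locus, so this direction was given in advance and these p-values answer no open question. In the J2 share the treatments overlapped and differed by 4.44 points (exact permutation p = 0.4). With the 2 libraries pooled they did not overlap, at 57.0 and 57.0% with LNP-P20-mAb, a difference of 6.75 points (exact permutation p = 0.1, the smallest allowed). When unnamed chains were put in the denominator, the pooled groups overlapped. They were at 12.7 and 13.9% with LNP-P20-mAb against 13.0, 13.2 and 11.9% (exact permutation p = 0.6).

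By clonotypes the members' shares lay between 44.5 and 55.5%, and by cells between 35.1% for TRBJ2-2 and 73.3% for TRBJ2-7. The TRBJ2-7 share by cells, 903 of 1232, includes the large TRBD2 clones just given. Over all libraries TRBD2 made up 51.9% of TRBJ2-1, 44.5% of TRBJ2-2, 51.5% of TRBJ2-3, 55.5% of TRBJ2-4, 50.1% of TRBJ2-5 and 52.3% of TRBJ2-7 clonotypes with a D named. Their counting intervals overlapped, the widest being 35.7 to 53.6% for TRBJ2-2. No step between neighbours in the mean by library was below an exact permutation p of 0.281. TRBJ2-7 was the member whose libraries separated by treatment, at 50.5, 55.4 and 41.5% against 72.7, 65.4 and 57.3%. Its means were 49.1% ± 7.05 and 65.1% ± 7.70 (SD, n = 3 each), with an exact permutation p of 0.1, the smallest allowed, and 0.322 adjusted over the 29 comparisons. With LNP-P20-mAb 1 and 2 pooled the values were 69.8 and 57.3% (exact permutation p = 0.2). With unnamed chains in the denominator the groups overlapped, at 12.7, 15.7 and 9.98% against 12.4, 20.5 and 15.5% (exact permutation p = 0.5).

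**Figure D4:**
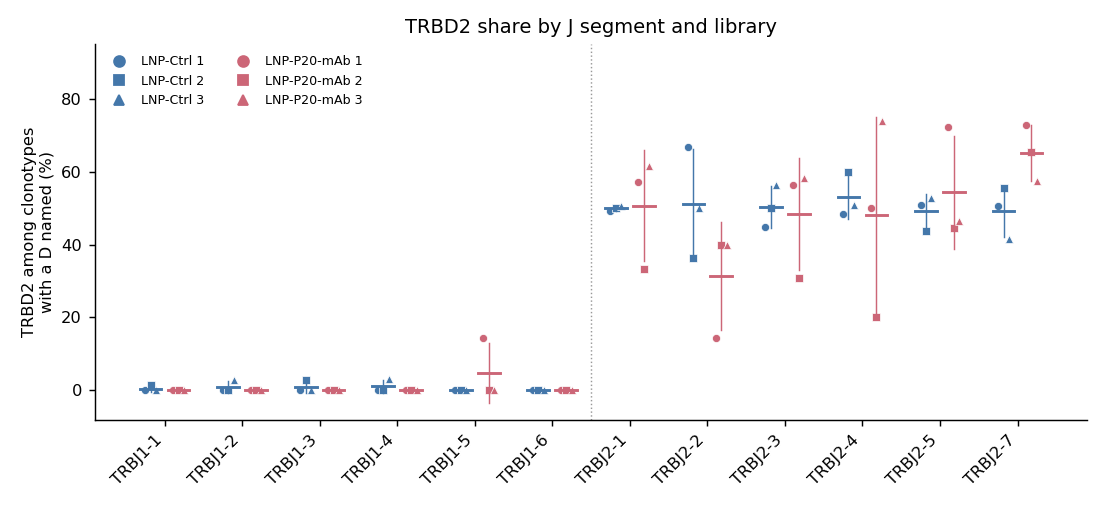
Share of TRBD2 in % among clonotypes with a D segment named, for the 6 TRBJ1 (left of the dotted line) and 6 TRBJ2 segments. Points are libraries, horizontal lines group means and vertical lines 1 SD (n = 3). TRBD2 is at 0.830% over all J1 clonotypes and at 51.5% over all J2 clonotypes.

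Because most chains had no D named, the CDR3 bases were also searched directly. The 7-base stretches GACAGGG and TGGGGGG were those that best told receptors named TRBD1 from those named TRBD2, so their share among named receptors is fixed by that choice. They were searched on the coding strand only, between the ninth base and the conserved end, and can occur in the same CDR3. Among J2 receptors with no D named, GACAGGG was present in 4.5% and TGGGGGG in 17.0%. Among J1 receptors with no D named, they were present in 6.22% and 1.6%. Over all J2 receptors the shares were 10.2% and 24.5%, and over all J1 receptors 20.3% and 1.35%. The TRBJ2-7 clone of TRBV13-1 shown above holds TGGGGGG, as does the TRBJ2-4 clone of TRBV13-3, on which no D was named. J2 clonotypes named TRBD2 had longer CDR3s, at 15.0 residues ± 0.210 (SD, n = 6), than those named TRBD1 at 14.2 ± 0.0513 and those with none at 13.9 ± 0.0743. Whether the naming of a D depends on CDR3 length was not tested.

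Clone sizes of the members were spread widely. Of 7208 J2 clonotypes, 6610 were seen in 1 cell, 401 in 2 to 4, 142 in 5 to 19 and 55 in 20 or more. Those 55 held 4569 cells, 34.0% of J2 cells, and were 55 of the 78 clones of that size in the libraries (70.5%), beside the cluster's 70.0% of chains. They held 37.3, 11.7 and 2.85% of J2 cells in LNP-Ctrl 1 to 3 and 68.4, 62.0 and 40.4% in LNP-P20-mAb 1 to 3. The LNP-P20-mAb libraries were all above the LNP-Ctrl libraries, of which LNP-Ctrl 1 was the nearest. Such clones held 73.5% of J2 cells in LNP-P20-mAb 1 and 2 taken as 1 sample.

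To compare libraries of unequal size, each was thinned to 2016 cells and the share of cells in clonotypes of 2 or more cells was averaged over 200 draws. This expanded share was 54.1, 22.5 and 10.8% of J2 cells in LNP-Ctrl 1 to 3 and 83.5, 84.8 and 60.6% in LNP-P20-mAb 1 to 3. The groups did not overlap, with means of 29.2% ± 22.4 and 76.3% ± 13.6 (SD, n = 3 each). The difference of 47.1 points had an exact permutation p of 0.1, the smallest allowed, and 0.322 adjusted over the 29 comparisons. With LNP-P20-mAb 1 and 2 pooled, the values were 84.2 and 60.6% (exact permutation p = 0.2). The J1 share was 30.4, 22.6 and 6.71% against 88.3, 84.9 and 44.1%. J2 exceeded J1 in 3 of 6 libraries, by a mean of 6.56 points ± 11.1 (exact permutation p = 0.375), and in 3 of 5 samples with LNP-P20-mAb 1 and 2 pooled (exact permutation p = 0.25).

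Among the members, TRBJ2-3 had the widest gap between the treatments, at 56.8, 17.2 and 3.68% against 85.6, 89.1 and 84.3%. TRBJ2-2 was at 32.5, 17.9 and 23.9% against 89.4, 87.6 and 50.4%. TRBJ2-5 was at 30.9, 11.7 and 7.42% against 81.6, 79.4 and 49.6%. TRBJ2-7 was at 34.4, 30.1 and 9.20% against 82.5, 83.8 and 46.8%. In each of these members the treatments did not overlap. The same held outside the cluster for TRBJ1-1, TRBJ1-2, TRBJ1-3 and TRBJ1-6, with a difference in means of 60.9 points for TRBJ1-2, and not for TRBJ1-4 and TRBJ1-5. TRBJ2-1 was at 73.4, 15.0 and 14.9% against 82.9, 88.2 and 54.9%. TRBJ2-4 was at 63.3, 30.6 and 12.0% against 80.5, 73.4 and 56.9%. In both of the last 2 members LNP-Ctrl 1 lay above LNP-P20-mAb 3. Taken as 1 sample, LNP-P20-mAb 1 and 2 were at 78.9 to 88.1% over the 6 members, and the members that overlapped were again TRBJ2-1 and TRBJ2-4. No step between neighbours in the mean order of the members was below an exact permutation p of 0.156.

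**Figure D5:**
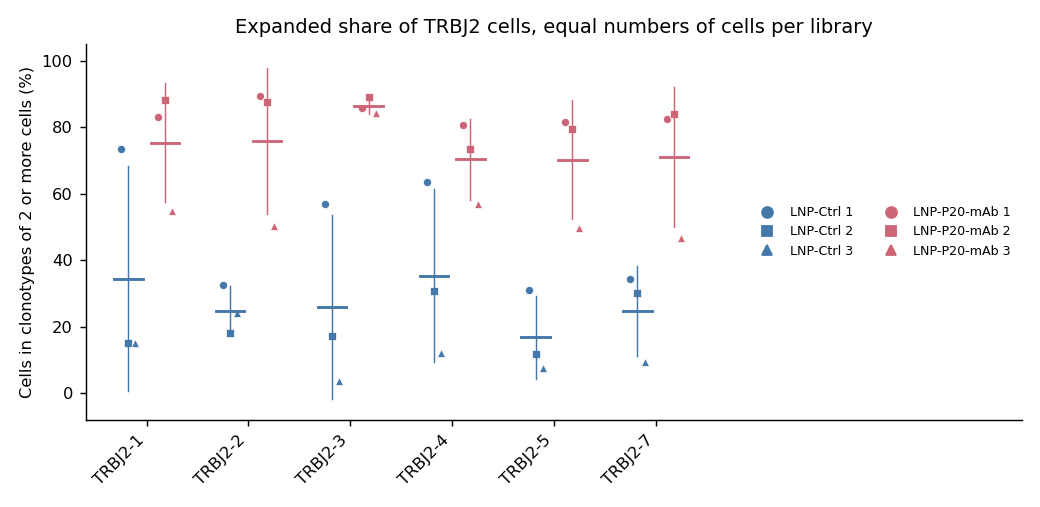
Share in % of each TRBJ2 segment's cells that belonged to clonotypes of 2 or more cells, after thinning each library to 2016 cells. Points are libraries, horizontal lines group means and vertical lines 1 SD (n = 3). LNP-Ctrl 1 is the highest control library for every segment, and overlaps with LNP-P20-mAb 3 for TRBJ2-1 and TRBJ2-4.

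Whether a member was used more by expanded clonotypes was tested within libraries, on clonotypes of 3 or more cells against clonotypes of 1 cell. edgeR called 1 of 150 V and J segments (0.667%), the alpha segment TRAV7D-2, and 0 of the 6 members, with 0 of them below an unadjusted p of 0.05. DESeq2 called 0 of the 6, with 1 below an unadjusted p of 0.05. The log2 differences of expanded from single-cell clonotypes were 0.39 ± 0.21 (SE, edgeR adjusted p = 0.315) for TRBJ2-4, 0.23 ± 0.18 for TRBJ2-1, 0.24 ± 0.21 for TRBJ2-3, 0.04 ± 0.28 for TRBJ2-2, -0.22 ± 0.16 for TRBJ2-7 and -0.24 ± 0.20 for TRBJ2-5. Their median was 0.13, beside -0.17 over all segments.

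The large clones differed between libraries in the member they used. In LNP-Ctrl 1 the largest J2 clone used TRBJ2-1 (468 cells, 14.0% of the library), and 2 clones of 102 cells followed, 1 with TRBJ2-3 and 1 with TRBJ2-7. In LNP-Ctrl 2 the 2 largest held 92 cells (TRBJ2-7 with TRBV12-1) and 68 cells (TRBJ2-4 with TRBV26), and in LNP-Ctrl 3 51 cells (TRBJ2-2 with TRBV3) and 20 cells (TRBJ2-4 with TRBV13-1). In LNP-P20-mAb 1 they held 253 cells (TRBJ2-7 with TRBV13-1) and 216 cells (TRBJ2-5 with TRBV1). Both were also found in LNP-P20-mAb 2, with 137 and 95 cells. There the largest was the TRBV3 clone of 154 cells with TRBJ2-3. The largest TRBJ2-2 clone, with TRBV26, had 194 cells in the first of these libraries and 108 in the second. In LNP-P20-mAb 3 the 2 largest held 414 cells (TRBJ2-3 with TRBV3, 14.6% of the library) and 114 cells (TRBJ2-7 with TRBV20).

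Some J2 receptors recurred at the amino acid level in libraries that shared few clones. With LNP-P20-mAb 1 and 2 taken as 1 sample, 101 of 6946 J2 receptors (same V, J and CDR3 residues) were found in 2 or more of 5 samples, or 1.45% (95% exact interval, for counting error only, 1.19 to 1.76%). Among J1 receptors it was 36 of 3316, or 1.09% (0.761 to 1.5%), and the 2 intervals overlapped. Of the 101, 84 were encoded by more than 1 nucleotide sequence. By member the share ran from 0.531% for TRBJ2-2 (0.110 to 1.54%) to 1.81% for TRBJ2-5 (1.15 to 2.71%). Found in 3 or more samples were 7, of which 3 paired TRBV10 with TRBJ2-3, and 1 of those was in 4 samples. Its 4 nucleotide sequences are shown because they encode the same 15 residues, with capitals marking the conserved end of TRBJ2-3.
TRBV10 with TRBJ2-3, 4 cells in LNP-Ctrl 2: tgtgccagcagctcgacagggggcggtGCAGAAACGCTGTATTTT
TRBV10 with TRBJ2-3, 1 cell each in LNP-Ctrl 3, LNP-P20-mAb 1 and LNP-P20-mAb 2: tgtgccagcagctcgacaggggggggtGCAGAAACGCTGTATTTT
TRBV10 with TRBJ2-3, 1 cell in LNP-Ctrl 1: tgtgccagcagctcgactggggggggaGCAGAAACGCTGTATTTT
TRBV10 with TRBJ2-3, 7 cells in LNP-Ctrl 1: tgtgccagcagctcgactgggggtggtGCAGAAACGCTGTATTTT
This receptor held 15 cells in all, and 4 was the highest number of samples reached by any J2 receptor.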

How the data were processed

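The 6 TCR libraries were deposited as tables of assembled chains with V, D, J and C segments, CDR3 bases and raw counts of reads and UMIs per chain, made with Cell Ranger 8.0.1 per the submitters' processing notes. The genome build behind these tables and the rule by which a D was named are not given in the sources used here. Chains were read as deposited. Cells needed exactly 1 TRB and 1 or 2 TRA chains, since 2 TRB chains mark a possible doublet, and a clonotype was the cells of a library with an identical TRB (V, J, CDR3 bases) that had at least a TRA chain in common. Libraries held 85835 to 145847 UMIs. In the smallest, 3 cells, the limit that a count of 0 allows, are 0.149% of cells.

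Clonotype counts of segments or pairs with at least 30 clonotypes were tested with edgeR 4.0.16 (R 4.3.3; quasi-likelihood, library size the number of clonotypes, Benjamini-Hochberg, adjusted p of 0.05), with library as a block for comparisons within libraries, and DESeq2 1.42.0 as the alternative. The edgeR test was tried on simulated data, and DESeq2 was not. Single values used exact permutation tests in Python 3.11.15 with scipy 1.17.1, numpy 2.4.6 and pandas 2.3.3, with figures from matplotlib 3.10.9. Thinning used seed 7. Alternatives were no filter, TMM scaling, cells counted, the TRB chain alone, 2 TRB chains kept, unpaired cells kept, 3 or more TRB UMIs, LNP-P20-mAb 1 and 2 pooled, and each library left out. Deviations of libraries with the same replicate number correlated at -0.081, -0.128 and -0.095 over 151 segments, so the numbers do not pair them.

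The members and lists were chosen with earlier results of these data known. The text names all 6 members and the TRBJ1, D and C segments, TRBV segments called between clusters, each member's 3 leading TRBV partners, up to 10 called pairs of largest change, the largest clone of each member and the 2 largest J2 clones of each library, and for likeness the 2 nearest segments.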

Additional observations from a re-analysis of the deposited data

Results flagged for a closer look

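The expanded share of TRBJ2-4 cells relative to that of all J2 cells moved in opposite directions in the treatments. TRBJ2-4 was above all J2 cells by 9.20, 8.05 and 1.16 percentage points in LNP-Ctrl 1 to 3 and differed from them by -2.93, -11.4 and -3.73 points in LNP-P20-mAb 1 to 3. The LNP-P20-mAb mean minus the LNP-Ctrl mean was -12.2 points. This was 1 of 27 such contrasts examined, and the difference was not tested.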

How the results depend on the processing

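The count of segments called between treatments, 5, was 2 with DESeq2, 2 with 2 TRB chains kept and 0 with cells counted (edgeR; 40 below an unadjusted p of 0.05), and 2 to 16 with a library left out. The V-J pairs called, 12, were 1 with DESeq2, 19 with cells counted and 0 to 14 with a library left out. The TRBV segments called between J2 and J1, 2, were 0 with cells counted, 6 with 2 TRB chains kept and 0 to 2 with a library left out (0 without LNP-Ctrl 2, with 4 below an unadjusted p of 0.05; DESeq2 called 2 with all libraries). The segments called by expansion, 1, were 0 with DESeq2 (19 below an unadjusted p of 0.05), 2 with 2 TRB chains kept, 3 with expansion set at 2 or more cells and 0 to 3 with a library left out. With the replicate number as a block, 6 segments and 11 pairs were called. Of the 8 J2 pairs 7 were called, all but TRBV12-2 with TRBJ2-1. No single value compared between treatments could change its call, since so few libraries allow no exact permutation p below 0.05. Within libraries, the CDR3 length of J2 against J1 had an unadjusted exact permutation p of 0.031. That p was 0.0625 with LNP-P20-mAb 1 and 2 pooled.

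The difference in the J2 share of cells was -0.295 points with unpaired cells kept and -2.54 to 3.56 with a library left out, and that in the TRBD2 share was -0.162 with chains lacking a D in the denominator. J2 CDR3s were longer than J1 by 0.218 residues with LNP-P20-mAb 1 and 2 pooled and by 0.198 to 0.229 with a library left out, where 5 samples allow no exact permutation p below 0.0625. With cells counted, log2 changes by treatment turned to -0.12 (TRBJ2-1), 0.28 (TRBJ2-2), 0.64 (TRBJ2-3), -0.59 (TRBJ2-4) and -0.027 (TRBJ2-7), and to -0.20, -0.048 and -0.21 for TRBV12-2 with TRBJ2-1, TRBV12-2 with TRBJ2-5 and TRBV13-1 with TRBJ2-1. TRBJ2-3 turned to 0.15 with 2 TRB chains kept and ranged from -0.16 to 0.0053 with a library left out, and TRBJ2-4 turned to -0.011 with libraries pooled and ranged from -0.018 to 0.063. TRBJ2-2 by expansion turned to -0.14 with DESeq2 and ranged from -0.22 to 0.15 with a library left out. Apart from fewer samples or other units counted, the cause was not tested. In the other 101 pairings of a main comparison with an alternative, the value kept its direction and side of the threshold or the count stayed within 1.5 times. For the expanded share and the J2 share of clonotypes, every alternative tried kept the direction. Between treatments the side of the threshold was fixed in advance for single values, whose exact permutation p cannot fall below 0.1. LNP-P20-mAb 2, with 400 clonotypes, limits the shares of rare pairs most.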

Other observations

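The alpha segment TRAV7D-2 was frequent in the expanded J2 clonotypes. It was the 1 segment that edgeR called between clonotypes of 3 or more cells and single-cell clonotypes (log2 difference 1.38 ± 0.32, edgeR adjusted p = 0.00266), and the call was lost without LNP-P20-mAb 3 (edgeR adjusted p = 0.0710) and with DESeq2 (DESeq2 adjusted p = 0.0699). Among J2 clonotypes it was present in 24 of 331 of 3 or more cells (7.25%) and in 163 of 6610 of 1 cell (2.47%). Among J1 clonotypes the values were 8 of 137 (5.84%) and 89 of 3174 (2.80%). It was on 20.8, 2.53 and 2.65% of J2 cells in LNP-Ctrl 1 to 3 and on 19.1, 22.1 and 21.4% in LNP-P20-mAb 1 to 3, so that LNP-Ctrl 1 lay among the LNP-P20-mAb libraries. In the 4 libraries with the high values, 1 or 2 clones held most of these cells. A single clone held 468 of 533 in LNP-Ctrl 1 and 414 of 465 in LNP-P20-mAb 3. The largest 2 held 201 and 194 of 419 in LNP-P20-mAb 1 and 154 and 108 of 305 in LNP-P20-mAb 2. The largest clones of TRBJ2-1, TRBJ2-2 and TRBJ2-3 carried it, 3 of 6 largest clones. Mouse TRAV segments have near-identical copies, so the naming of this one is uncertain.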
